A study of Rattus norvegicus with 6 samples.

Results

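The renin-angiotensin and endothelin systems are represented here by 8 genes, Agt, Ace, Agtr1a, Agtr2, Edn1, Ece1, Ednra and Ednrb. They were chosen by gene symbol from the 22250 genes in the deposited expression table. Transcripts were measured by RNA-Seq of polyadenylated RNA from tissue labelled as left ventricular myocardium, from male Sprague-Dawley rats, taken on day 1 after heterotopic transplantation, in which the graft is connected to the circulation of a recipient that keeps its own heart. Young donor hearts came from rats of 10 weeks (animals 3, 13 and 15) and aged donor hearts from rats of 1 year (animals 3, 4 and 7), with 3 hearts in each group. All donors had the WT genotype, all hearts were cold stored in preservation solution, and all recipients were young rats, so every library is from a transplanted heart and no heart without transplantation was compared. Animals were numbered separately by group, and number 3 stands for a different heart in each.

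In the renin-angiotensin system, angiotensin I is cut from angiotensinogen (Agt), and angiotensin-converting enzyme (Ace) cuts this to angiotensin II. Angiotensin II acts through the type 1 receptor (Agtr1a), which raises vascular tone and promotes growth and fibrosis, and through the type 2 receptor (Agtr2), which mostly opposes it. In the endothelin system, endothelin-converting enzyme (Ece1) releases endothelin-1 (Edn1), a strong vasoconstrictor made mainly by endothelial cells. The type A receptor (Ednra) is carried by smooth muscle cells, fibroblasts and cardiomyocytes and mediates constriction. The type B receptor (Ednrb) is carried by endothelial cells, where it releases nitric oxide and clears endothelin-1, and also by other cells.

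The promoters of Edn1, Ednra and Ednrb are shown because these 3 genes had the largest differences among the 8. The RefSeq promoter table for build GRCr8 held 7 of the 8 genes, and Agt is named only. Each sequence ends before the RefSeq start of the gene, and is read on the strand of the gene. Capitals mark motif matches.
Edn1, chr17:22666788-22666937, minus strand, 250 to 101 bases before the start: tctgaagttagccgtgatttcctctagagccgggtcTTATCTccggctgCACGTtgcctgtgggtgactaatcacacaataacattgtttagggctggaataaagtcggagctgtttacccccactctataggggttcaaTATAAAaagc
Ednra, chr19:47137674-47137923, plus strand, 250 bases before the start: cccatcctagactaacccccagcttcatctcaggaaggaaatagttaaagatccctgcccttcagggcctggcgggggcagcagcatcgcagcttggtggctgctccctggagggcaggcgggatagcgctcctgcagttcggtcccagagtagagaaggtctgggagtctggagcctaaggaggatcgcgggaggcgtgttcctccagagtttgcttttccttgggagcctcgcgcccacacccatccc
Ednrb, chr15:87086766-87087015, minus strand, 250 bases before the start: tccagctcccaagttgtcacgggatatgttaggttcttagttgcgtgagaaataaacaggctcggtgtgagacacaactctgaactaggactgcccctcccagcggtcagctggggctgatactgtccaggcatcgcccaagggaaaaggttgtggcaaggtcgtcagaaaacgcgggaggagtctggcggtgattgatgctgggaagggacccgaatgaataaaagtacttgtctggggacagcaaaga

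On both strands of the 250 bases before each start, 5 motifs were searched. A TATA box was taken as TATAAA. A GC box, the site of SP1 and its relatives, was taken as GGGCGG. An AP-1 site was taken as TGACTCA, a sequence whose middle base is C or, on the other strand, G. A GATA factor site was taken as AGATAA and the core of a hypoxia response element as ACGTG. Of 33469 RefSeq promoters, 12.9% held the TATA box, 30.5% the GC box, 4.0% the AP-1 site, 10.3% the GATA factor site and 16.6% the hypoxia response core. In the Edn1 promoter, the site for GATA factors was found on the other strand, as TTATCT, at 214 to 209 bases before the start. The hypoxia response core was found on the other strand, as CACGT, at 201 to 197 bases, and the TATA box at 110 to 105 bases. None of the 5 motifs was found in the Ednra, Ednrb or Agtr2 windows. The Ace window held a TATA box on the other strand, as TTTATA, at 42 to 37 bases and 4 GC boxes, 2 of which overlap. Agtr1a held a TATA box at 45 to 40 bases and 2 overlapping GC boxes. Ece1 held 2 GC boxes on the other strand, as CCGCCC. A match describes the letters in the window and is not a measured binding site.

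Between 21457509 and 24560869 reads were counted on genes per heart, and 3 counts, taken as the smallest signal, came to 0.0985 to 0.191 CPM. CPM, the unit of level used here, scales counts to the same library total in every heart, after TMM normalization, with factors from 0.7331 in young 13 to 1.24 in aged 3. Of 13784 genes with enough counts to test, 4436 (32.2%) passed the study's limits, which ask for a fold change of over 1.5 or under 0.67 at an unadjusted p under 0.05, with 13.2% higher and 19.0% lower in aged donor hearts. In edgeR's quasi-likelihood test, 0 genes had an adjusted p (Benjamini-Hochberg) under 0.05, 4731 had an unadjusted p under 0.05, and the smallest adjusted p was 0.0916. DESeq2 and limma-voom gave 3592 and 8416 genes with an adjusted p under 0.05. In 41.6% of the tested genes the aged hearts were either all above or all below the young hearts.

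The 6 libraries differed in cell type markers, and young 15 and aged 3 stood apart from their groups. The summed level of 10 ventricular cardiomyocyte markers was 76949, 85862 and 11583 CPM in young 3, 13 and 15, and 142.2, 6728 and 4778 CPM in aged 3, 4 and 7. Every one of these markers was detected in every heart, but Myl2, the ventricular myosin light chain, had 27 counts in aged 3 against 6100 in young 13, so the labelled ventricular muscle was nearly without its defining transcripts in aged 3. Of the 10, 4 were lower past the limits and 0 were higher. Neutrophil markers (8 of 8 tested higher) summed to 16.5 to 135.9 CPM in young and 347.5 to 1312 CPM in aged donor hearts, and macrophage markers (5 of 10 higher) to 369.5 to 2352 and 3685 to 7093 CPM, with young 15 the highest of the young hearts in both. Endothelial markers summed to 1383 to 2067 CPM in young and 1267 to 1845 CPM in aged donor hearts, with 1 of 10 tested higher and 1 lower and with Cldn5 at 0 in all hearts. Smooth muscle and mural markers summed to 1139 to 1801 and 974.5 to 1147 CPM (0 of 10 higher, 2 lower), and fibroblast markers to 6576 to 8198 and 2095 to 4283 CPM (0 of 7 higher, 3 lower). Atrial markers, at 1.87 to 62.6 CPM elsewhere, reached 165.8 CPM in aged 4 (1 of 3 tested higher, 0 lower). The sampled tissue may thus differ between hearts, and the part of this in each difference between aged and young donor hearts was not tested. In bulk tissue, fewer cells of a type and less RNA per cell cannot be told apart.

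**Figure D1:**
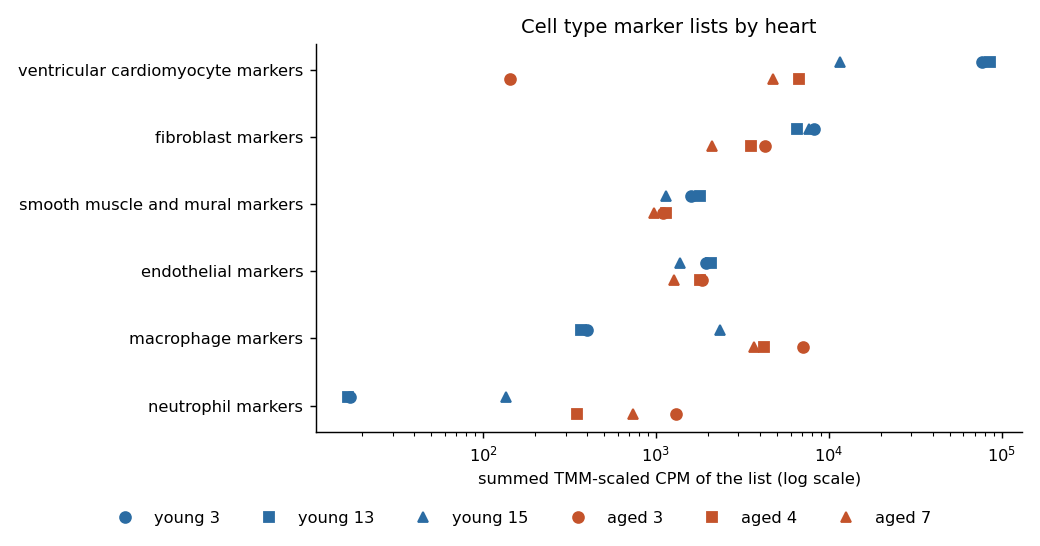
Summed level of 6 cell type marker lists in each heart, in TMM-scaled CPM on a log axis, with young hearts in blue and aged hearts in orange and 1 point per heart. The cardiomyocyte markers range from 85862 CPM in young 13 to 142.2 CPM in aged 3, the endothelial and mural markers lie within a narrow range, and young 15 lies between its group and the aged hearts for cardiomyocytes, macrophages and neutrophils.

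Of the 8 genes, 7 had enough counts to test, and 4 of these passed the limits, against 32.2% of all tested genes. Ednrb, Edn1 and Ece1 were higher in aged donor hearts (3 of 7, against 13.2%), Ednra was lower (1 of 7, against 19.0%), and Agt, Ace and Agtr1a passed in neither direction. All 4 that passed belong to the endothelin system. In TMM-scaled CPM, the groups did not overlap for 5 of the 7 genes, these 4 and Agt, against 41.6% of all tested genes. The median log2 fold change of the 7 was 0.62, against 0.016 over all tested genes. By edgeR with all hearts, 0 of the 7 had an adjusted p under 0.05. DESeq2 gave adjusted p = 0.0182 for Edn1, 0.0106 for Ednra and 0.00687 for Ednrb and values over 0.05 for the other 4. With limma-voom, all but Agtr1a (adjusted p = 0.168) were under 0.05. Over all 13784 tested genes, 3592 had an adjusted p under 0.05 with DESeq2 and 8416 with limma-voom. In edgeR without young 15, the adjusted p was 0.00606 for Ednra, 0.0111 for Ednrb and 0.0118 for Ace. In that fit, 6815 of all 14109 tested genes had an adjusted p under 0.05. The same animal number does not link young and aged hearts, and these p-values measure the spread between the 6 hearts alone.

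Endothelin-1 transcript was scarce in both groups. Edn1 (ENSRNOG00000014361, chr17:22137324-22143324, minus strand, Rnor_6.0) had 49, 24 and 37 counts in young 3, 13 and 15 and 150, 103 and 129 counts in aged 3, 4 and 7. These counts correspond to 2.96, 1.53 and 1.53 CPM in young and to 4.93, 3.91 and 4.94 CPM in aged donor hearts. Every aged heart lay above every young heart, and the aged hearts differed little among themselves. The mean was 4.59 ± 0.595 CPM (SD, n = 3) in aged and 2.01 ± 0.830 CPM (SD, n = 3) in young donor hearts, a 2.29-fold difference with a log2 fold change of 1.20 (SE 0.369, unadjusted p = 0.0162, adjusted p = 0.0975 by edgeR). Without young 13 the value was 1.04 and the unadjusted p by edgeR was 0.0572, outside the limits.

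Ece1, the protease that cuts the endothelin precursor, was the most abundant of the 8. Ece1 (ENSRNOG00000014241, chr5:156215417-156318671, plus strand) stood at 240.4, 203.8 and 225.9 CPM in young 3, 13 and 15 and at 352.7, 411.8 and 267.9 CPM in aged 3, 4 and 7. The young hearts were close together, the aged hearts spread more widely, and aged 7, the lowest of them, still lay above all young hearts. The means were 223.4 ± 18.4 CPM and 344.1 ± 72.3 CPM (SD, n = 3 each), a 1.54-fold difference with a log2 fold change of 0.62 (SE 0.242, unadjusted p = 0.0396, adjusted p = 0.13 by edgeR). Ece1 lay close to the limits and passed them in 2 of the 6 fits that left out 1 heart, those without young 15 and without aged 7, and not with limma-voom (0.51).

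The endothelin receptors differed in opposite directions. Ednra (ENSRNOG00000012721, chr19:33928356-33991703, plus strand) had 1342, 1135 and 970 counts in young and 563, 772 and 829 counts in aged donor hearts, or 81.2, 72.2 and 40.1 CPM in young 3, 13 and 15 and 18.5, 29.3 and 31.8 CPM in aged 3, 4 and 7. All aged hearts lay below all young hearts, young 15 was the lowest young heart and aged 3 the lowest of all. With means of 64.5 ± 21.6 and 26.5 ± 7.06 CPM (SD, n = 3 each), Ednra was 2.43-fold higher in young donor hearts, with a log2 fold change of −1.28 (SE 0.338, unadjusted p = 0.00808, adjusted p = 0.0916 by edgeR).

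Ednrb (ENSRNOG00000010997, chr15:88006977-88036354, minus strand) went in the other direction. It had 307, 317 and 787 counts in young and 2716, 1046 and 1682 counts in aged donor hearts, or 18.6, 20.2 and 32.5 CPM in young 3, 13 and 15 and 89.2, 39.7 and 64.5 CPM in aged 3, 4 and 7. No aged heart lay within the young range, aged 3 was the highest, and young 15 and aged 4 were the nearest to each other across the groups. The means were 23.7 ± 7.63 and 64.4 ± 24.8 CPM (SD, n = 3 each), a 2.71-fold difference with a log2 fold change of 1.44 (SE 0.367, unadjusted p = 0.00688, adjusted p = 0.0916 by edgeR). Both receptors passed the limits in all 6 fits that left out 1 heart and in all 7 fits with another scaling, filter or tool. Without young 15 and aged 3 together, an alternative chosen after seeing the data, the log2 fold changes were −1.29 for Ednra and 1.47 for Ednrb. The adjusted p by edgeR were 0.000571 and 0.00347, in a fit where 7642 of all 13863 tested genes had an adjusted p under 0.05.

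**Figure D2:**
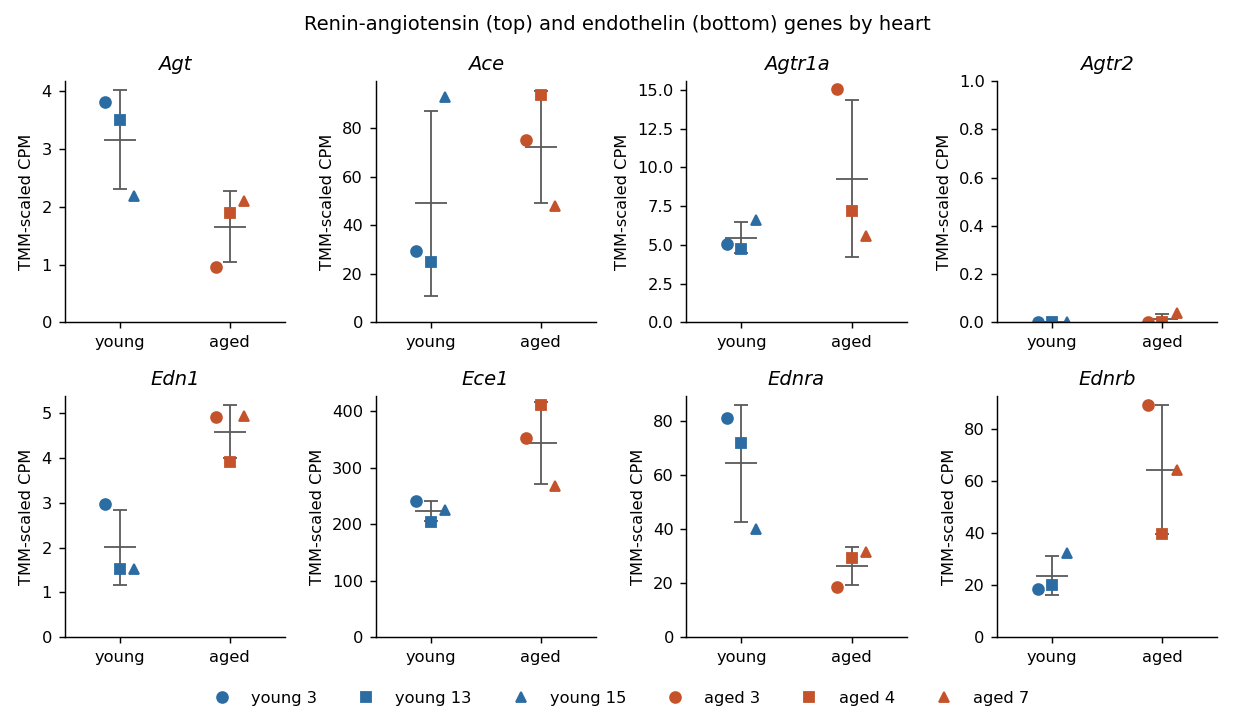
Level of each of the 8 genes in each heart, in TMM-scaled CPM on axes that start at 0, with 1 symbol per heart and bars for the mean and SD of 3 hearts. Edn1, Ece1 and Ednrb lie higher in all aged hearts, Ednra and Agt lie lower, Ace and Agtr1a overlap, and Agtr2 has 1 count in aged 7 alone.

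A ratio within a heart does not depend on library scaling, and levels of different genes are compared per gene length. The ratio of Ednra to Ednrb per length was 1.72, 1.41 and 0.484 in young 3, 13 and 15 and 0.0815, 0.290 and 0.194 in aged 3, 4 and 7. Ednra thus exceeded Ednrb in young 3 and 13, and Ednrb exceeded Ednra in young 15 and in every aged heart. The mean log2 ratio was 0.074 ± 0.981 in young and −2.59 ± 0.936 in aged donor hearts (SD, n = 3 each), 6.34-fold higher in young donor hearts, with p = 0.1 in a two-sided exact permutation test, the smallest that 3 against 3 hearts can give (adjusted p = 0.133 over 4 ratios). The difference of −2.67 on the log2 scale ranged from −3.23 without young 15 to −2.15 without aged 3.

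The ratio of Ednra to Agtr1a, the constrictor receptors of the 2 systems, was 6.83, 6.55 and 2.60 in the young and 0.528, 1.74 and 2.45 in the aged hearts, with no overlap and 3.72-fold higher in young (exact permutation p = 0.1, adjusted p = 0.133). Edn1 to Ece1, ligand to enzyme, was 0.0417, 0.0256 and 0.0230 in the young and 0.0470, 0.0319 and 0.0620 in the aged hearts, which overlapped (exact permutation p = 0.2, adjusted p = 0.2). Ratios of Agtr1a to Agtr2 and to Agtr1b had no value, because Agtr2 had at most 1 count and Agtr1b had 0 counts in every heart.

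**Figure D3:**
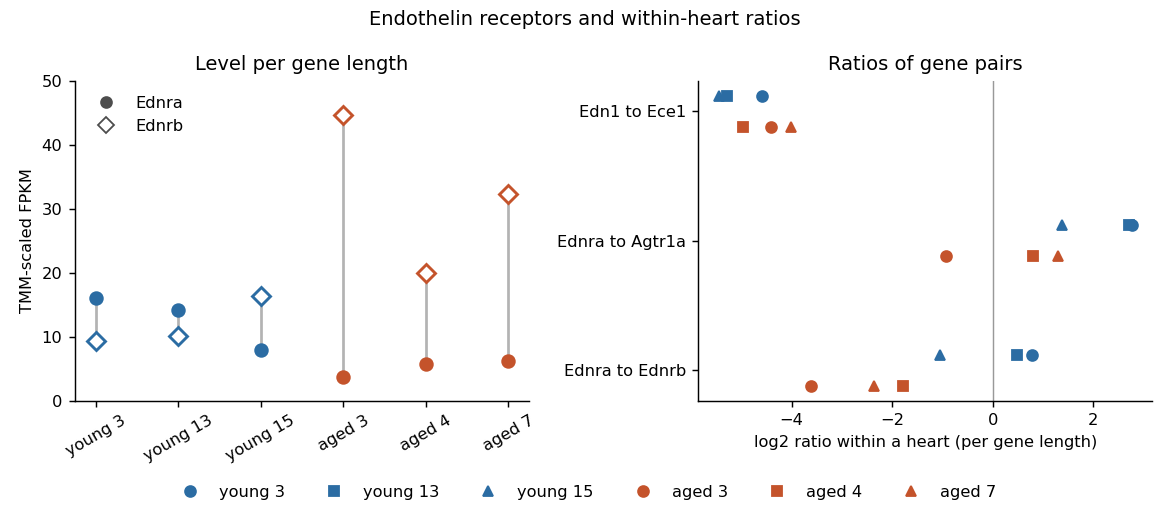
Left, level per gene length (TMM-scaled FPKM) of Ednra (filled circles) and Ednrb (open diamonds) in each heart, joined by a line; right, log2 ratio of 3 gene pairs within each heart, per gene length, with 1 symbol per heart. Ednra lies above Ednrb in young 3 and 13 and below it in the other 4 hearts, and the young and aged hearts overlap for Edn1 to Ece1 and are separate for Ednra to Ednrb and Ednra to Agtr1a.

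Because the tissue differed in cell type markers, the counts were also set against the summed counts of the markers of a cell type that carries the gene, a measure chosen after the data were seen. Edn1 came to 1.53, 0.754 and 1.12 counts per 1000 endothelial marker counts in young 3, 13 and 15 and to 2.68, 2.20 and 3.92 in aged 3, 4 and 7, which did not overlap. Ece1 did not overlap on this measure either, with 98.6 to 163.4 in young and 191.2 to 230.4 in aged donor hearts. Ednrb did overlap, with 9.51, 9.77 and 23.5 in the young and 48.4, 22.2 and 50.9 in the aged hearts, where aged 4 lay below young 15. Ednra per 1000 smooth muscle and mural marker counts was 51.0, 40.1 and 35.2 in the young and 16.9, 25.5 and 32.6 in the aged hearts, without overlap and 0.581 times as high in aged. The exact permutation p was 0.1 for Edn1, Ece1 and Ednra and 0.2 for Ednrb (adjusted p = 0.233, 0.233, 0.233 and 0.28 over 7 such relations). Ednra is also carried by fibroblasts, whose markers summed to 6576 to 8198 CPM in young and 2095 to 4283 CPM in aged donor hearts. By heart these sums were 8198, 6576 and 7706 CPM in young 3, 13 and 15 and 4283, 3528 and 2095 CPM in aged 3, 4 and 7. Relative to them, Ednra was lowest in aged 3 and highest in aged 7, so the groups overlapped. The lack of overlap of Ednra thus holds for the mural markers alone, and no test was run against the fibroblast markers. The part of fibroblasts, cardiomyocytes, macrophages and neutrophils in these differences was not tested.

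Of the renin-angiotensin genes, angiotensinogen was low and showed no call. Agt (ENSRNOG00000018445, chr19:57321640-57333433, minus strand) had 63, 55 and 53 counts in young and 29, 50 and 55 counts in aged donor hearts, or 3.81, 3.50 and 2.19 CPM and 0.952, 1.90 and 2.11 CPM. In CPM, young 15 and aged 7 nearly met, and aged 3 was the lowest. Before scaling the groups overlapped, with 53 counts in young 15 and 55 in aged 7, at library totals of 22277905 and 22508040. The separation of Agt thus rests on the TMM factors. The means of 3.17 ± 0.860 and 1.65 ± 0.615 CPM (SD, n = 3 each) gave a log2 fold change of −0.94 (SE 0.425, unadjusted p = 0.0673, adjusted p = 0.168 by edgeR). With DESeq2, limma-voom or without young 15, Agt passed the limits on the lower side (unadjusted p = 0.0472, 0.0116 and 0.0401).

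Ace, which makes angiotensin II and also degrades bradykinin, depended on young 15. Ace (ENSRNOG00000062101, chr10:94170766-94187822, plus strand) stood at 29.3, 25.0 and 93.1 CPM in young 3, 13 and 15 and at 75.1, 93.7 and 48.0 CPM in aged 3, 4 and 7. Young 15 was within the aged range and the other young hearts lay below all aged hearts. The log2 fold change was 0.56 (SE 0.555, unadjusted p = 0.354, adjusted p = 0.485 by edgeR) with all hearts and 1.45 without young 15 (adjusted p = 0.0118 by edgeR). With limma-voom and quality weights, Ace also passed the limits (adjusted p = 0.00994). Over all genes, the adjusted p was under 0.05 for 6815 of 14109 tested without young 15 and for 8416 of 13784 with limma-voom. Per 1000 endothelial marker counts, Ace overlapped between the groups, with 12.1 to 67.3 in young and 37.9 to 52.4 in aged donor hearts (exact permutation p = 0.4, adjusted p = 0.467).

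Neither angiotensin II receptor differed past the limits. Agtr1a (ENSRNOG00000018346, chr17:35907108-35958077, minus strand) had 84, 74 and 160 counts in young and 458, 190 and 145 counts in aged donor hearts, or 5.08, 4.71 and 6.61 CPM and 15.0, 7.20 and 5.56 CPM. Aged 3 alone stood clear of the rest, and aged 7 lay within the young range. The log2 fold change of 0.76 (SE 0.422, unadjusted p = 0.119, adjusted p = 0.231 by edgeR) was 0.23 without aged 3. Per 1000 mural marker counts the groups overlapped, with 2.63 to 5.82 in young and 5.72 to 13.8 in aged donor hearts (exact permutation p = 0.2). Agtr2 (ENSRNOG00000050006, chrX:119390013-119393842, plus strand) had 0 counts in 5 hearts and 1 count in aged 7, and a level under 3 counts, or 0.0985 to 0.191 CPM, was not detectable at this depth. Reads shared between Agtr1a and its close paralog Agtr1b may have been assigned to either or to neither.

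Per gene length, in TMM-scaled FPKM, Ece1 was first of the 8 genes in all 6 hearts, with 43.8 to 51.6 in young and 57.5 to 88.4 in aged donor hearts. Second place went to Ednra in young 3 and 13 (16.0 and 14.2), to Ace in young 15 and aged 4 (24.7 and 24.9) and to Ednrb in aged 3 and 7 (44.7 and 32.3). In young donor hearts the means of Ace (13.1 ± 10.1), Ednra (12.7 ± 4.26) and Ednrb (11.9 ± 3.83) differed by less than their SDs (n = 3 each). In aged donor hearts Ednrb (32.3 ± 12.4) and Ace (19.2 ± 6.11) overlapped in their ranges, and both lay above Ednra (5.22 ± 1.39) and Agtr1a (4.25 ± 2.32), whose ranges overlapped too. Agtr1a, Edn1 and Agt formed the low end in young donor hearts, at 2.50 ± 0.462, 1.44 ± 0.597 and 1.64 ± 0.445. In aged donor hearts Edn1 (3.30 ± 0.428) lay above Agt (0.855 ± 0.318) in every heart, and Agtr2 came last with at most 0.013.

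For each of the 7 tested genes, the gene with the most similar log2 CPM across the 6 hearts was sought among 12958 genes of at least 1 CPM. The highest Pearson r was with Map3k10 for Agt (0.9983), Mad2l1 for Ace (0.9995), Epb41l2 for Agtr1a (0.9948), Sfn for Edn1 (0.9886), Usb1 for Ece1 (0.9802), Gramd2b for Ednra (0.9987) and Rapgef6 for Ednrb (0.9973). The number of genes with r above 0.95 was 1249 for Ednra, 739 for Agt, 534 for Ednrb and 237 for Ace, against 48 for Agtr1a, 21 for Ece1 and 16 for Edn1. Ednra and Agt thus followed a pattern that many genes shared, and Edn1 and Ece1 a pattern of few. Among the 7, r was −0.95 between Ednra and Ednrb and 0.972 between Ednra and Agt. These values describe 6 points that share the same libraries and 2 groups.

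The other genes of the renin-angiotensin system were taken from a list of 21, of which Cyp11b2 was not analysed here. Of 17 tested, 6 were higher past the limits in aged donor hearts and 4 were lower, against 13.2% and 19.0% of all tested genes, and 11 did not overlap, against 41.6%. Their median log2 fold change was 0.55. The 6 higher genes hold 4 peptidases and 2 other proteins, and the lower genes described here are 2 peptidases and a receptor.

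Among the genes that were higher, Mme (neprilysin), which degrades angiotensins, natriuretic peptides and endothelin-1, had the largest difference. It stood at 3.03, 2.35 and 5.45 CPM in young and 26.4, 9.48 and 18.6 CPM in aged donor hearts, with a log2 fold change of 2.32 (SE 0.497, adjusted p = 0.0916 by edgeR). Atp6ap2, an accessory subunit of the vacuolar proton pump, stood at 25.6, 20.7 and 69.3 CPM in young and 131.3, 79.6 and 93.4 CPM in aged donor hearts (log2 fold change 1.40, SE 0.5, adjusted p = 0.117 by edgeR). Young 15 lay nearest to the aged hearts for both genes. Thop1, which cuts angiotensin I to angiotensin-(1-7), had a log2 fold change of 1.05 (SE 0.296) and Ctsa, a lysosomal carboxypeptidase, one of 1.00 (SE 0.352), with adjusted p = 0.0923 and 0.114 by edgeR. Agtrap, which promotes internalization of the type 1 receptor, and Prcp, a carboxypeptidase that cuts angiotensin II, were also higher, with log2 fold changes of 0.87 and 0.85, and are named after their values were seen. Of the 4 named by size, Mme and Thop1 passed the limits in all 6 fits that left out 1 heart, and Atp6ap2 and Ctsa failed them in 4, Atp6ap2 without young 3, young 13, aged 3 and aged 7 and Ctsa without young 3, young 13, aged 3 and aged 4.

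Among the genes that were lower, Cma1, a mast cell chymase, had 65, 32 and 61 counts in young and 19, 17 and 17 counts in the aged hearts. Its log2 fold change was −2.13 (SE 0.379, adjusted p = 0.0916 by edgeR) and it passed the limits in all 6 fits that left out 1 heart. The mast cell markers did not move as one, with Cpa3 (−2.55), Ms4a2 (−2.69) and Tpsb2 (−1.23) lower past the limits, Kit (1.48) higher and 2 of the 6 in neither direction. The summed level of this list, 44.1 to 60.8 CPM in young and 41.0 to 196.4 CPM in aged donor hearts, was mostly Kit. The part of mast cells in the Cma1 result was not tested.

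Nr3c2, the mineralocorticoid receptor through which aldosterone acts, was lower by a log2 fold change of −1.47 (SE 0.452, adjusted p = 0.0975 by edgeR), from 12.5, 14.8 and 7.77 CPM in young to 2.14, 4.47 and 6.05 CPM in aged donor hearts. Enpep, which cuts angiotensin II to angiotensin III, had −1.10 (SE 0.362, adjusted p = 0.104 by edgeR), with −0.55 and no call under library totals. With 1 heart left out, Nr3c2 lost its call without young 13 and Enpep in 5 of 6 fits, all but the one without young 15.

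Mas1, the receptor for angiotensin-(1-7), had 19, 16 and 34 counts in young and 13, 39 and 24 counts in aged donor hearts, and its log2 fold change of −0.35 (SE 0.514) changed sign under other settings.

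The other endothelin genes had few counts. Edn2 had 2, 1 and 2 counts in young and 0 in every aged donor heart, and Edn3 had 2 counts in young 3 and 0 elsewhere, which is at or under the 3 counts taken as a signal. Of 5 listed genes, 2 were tested and 0 passed the limits, against 32.2% of all tested genes. Ece2, a relative of Ece1, stood at 5.08, 5.09 and 6.28 CPM in young and 4.86, 4.25 and 2.91 CPM in aged donor hearts, with a log2 fold change of −0.45 (SE 0.293, unadjusted p = 0.17, adjusted p = 0.29 by edgeR). Under library totals its value was −0.026. Of the kinin genes, whose peptides are degraded by Ace, 3 of 7 were tested and 0 passed, against 1 with limma-voom and 1 without young 15 and aged 3. Over all tested genes, 32.2% passed with all hearts, 54.4% with limma-voom and 53.4% without young 15 and aged 3.

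**Figure D4:**
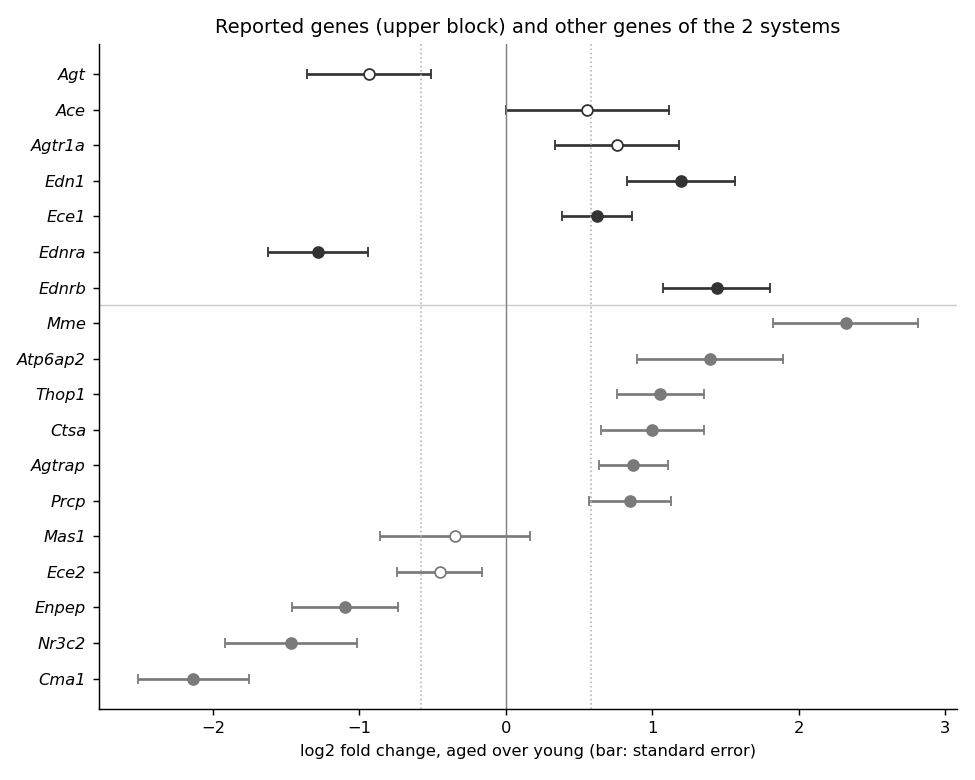
Log2 fold change of aged over young donor hearts with its standard error for the 7 tested genes of the 8 (upper block) and for other genes of both systems (lower block); filled points passed the limits, open points did not, and dotted lines mark the fold limits of 0.67 and 1.5. Ednra and Ednrb lie on opposite sides of 0 at −1.28 and 1.44, and the bar of Mas1, with an SE of 0.514, crosses 0.

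Ednra and Agtr1a both signal through Gq and RhoA, and 26 genes of that machinery were tested. Of these, 5 were higher past the limits and 4 lower, against 13.2% and 19.0% of all tested genes, with a median log2 fold change of 0.32. The counts were 8 higher and 2 lower under library totals, 8 and 5 with limma-voom, and 8 and 5 without young 15 and aged 3. Over all tested genes they were 3147 higher and 1441 lower of 13784 under library totals and 3689 and 3815 of 13784 with limma-voom. Without young 15 and aged 3 they were 3764 and 3632 of 13863. With 1 heart left out, the higher count was 1 without young 3 or young 13, 3 without aged 3 and 10 without young 15, and the lower count 3 to 5. Over all tested genes, the higher counts were 817 of 14024 without young 3, 862 of 14060 without young 13 and 1048 of 14033 without aged 3. Without young 15, 3802 of 14109 were higher, and with 1 heart left out 1615 to 3412 were lower. The higher genes named were Arrb2 (1.56) and Arrb1 (0.84), the β-arrestins that shut off receptors, Plcb3 (0.86), a phospholipase C, and Grk2 (0.72), a receptor kinase, with adjusted p = 0.0927, 0.134, 0.097 and 0.0953 by edgeR. The lower genes were the protein kinases C Prkce (−2.46) and Prkca (−0.77), the phospholipase Plcb4 (−1.67) and the transcription factor Nfatc2 (−1.73), with adjusted p = 0.0923, 0.0916, 0.0923 and 0.113 by edgeR. For Prkce, young 15 lay near the aged hearts, with 30.4, 46.8 and 6.24 CPM in young and 4.83, 4.89 and 5.37 CPM in aged donor hearts. Under library totals, Nfatc2 and Prkca did not pass (−1.20 and −0.31). With 1 heart left out, Arrb2, Prkce, Prkca and Plcb4 passed in all 6 fits. Plcb3 and Grk2 lost their call without young 3 and without young 13, Nfatc2 without these and without aged 7, and Arrb1 without these 2 young hearts, aged 3 and aged 4.

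Genes known to be induced by angiotensin II and endothelin-1 went both ways. Of 12 tested, 3 were higher past the limits, Fos (2.04), Egr1 (1.40) and Tgfb1 (1.13), and 3 were lower, Acta1 (−3.43), Col1a1 (−1.61) and Col3a1 (−1.32), against 13.2% and 19.0% of all tested genes. The higher count was 6 with limma-voom, 7 without young 15 and aged 3, 5 without young 15, 1 without aged 3 or aged 4, and 0 without young 3, young 13 or aged 7. The lower count was 0 under library totals and without young 3 or aged 7, and 1 without aged 4. Over all tested genes, the higher count was 3689 with limma-voom, 3764 without young 15 and aged 3, and 3802 without young 15. It was 817 to 1404 in the other fits named for it. The lower count over all tested genes was 1441 under library totals, 1615 without young 3, 1924 without aged 7 and 2160 without aged 4. These fits tested 13784 to 14109 genes. With all hearts, the adjusted p by edgeR were 0.135, 0.108 and 0.123 for the higher and 0.139, 0.127 and 0.104 for the lower genes. Fos and Egr1 are immediate early transcription factors and Tgfb1 is a profibrotic cytokine, and Acta1, skeletal α-actin, is expressed in cardiomyocytes and had 156 counts in aged 3 against 58575 in young 13. Col1a1 and Col3a1, fibrillar collagens, are also among the fibroblast markers, which were lower as given above. The 3 lower genes did not pass under library totals (−2.91, −1.23 and −0.86). With 1 heart left out, Fos and Tgfb1 kept their call only without young 15, Egr1 and Col3a1 in 3 of 6 fits, and Acta1 and Col1a1 in 2.

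The figure of alternatives sets out how firmly each of the 7 values stands. None of the 7 changed sign in any of the fits run. The log2 fold change with 1 heart left out was −1.49 to −1.07 for Ednra, 1.14 to 1.78 for Ednrb, 1.04 to 1.58 for Edn1 and 0.48 to 0.78 for Ece1. Ace moved most, from 0.24 to 1.45, Agtr1a went from 0.23 to 1.03 and Agt from −1.14 to −0.65. Under library totals, where the median of all tested genes was 0.46, Ednra was at −0.78 and Ednrb at 1.84, and both still passed the limits.

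**Figure D5:**
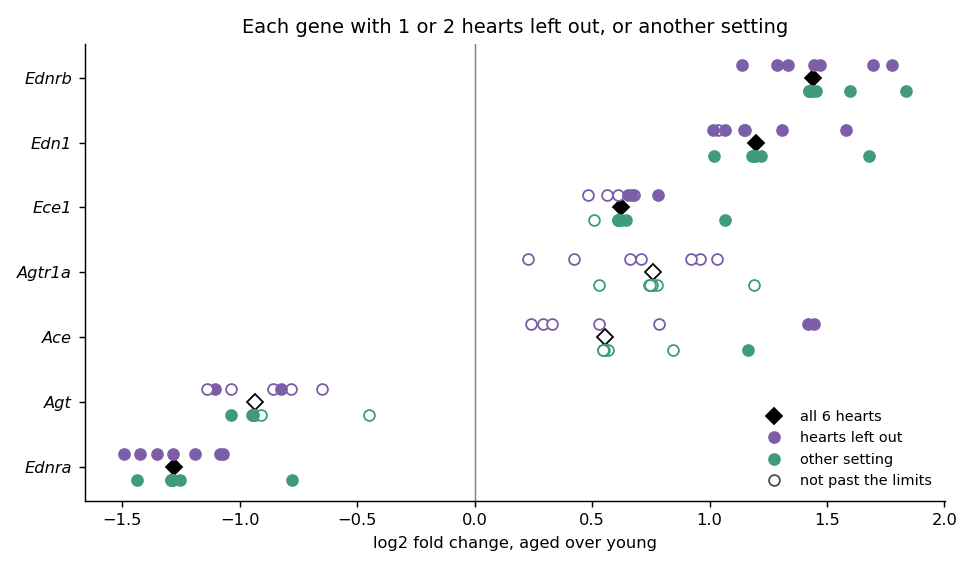
Log2 fold change of aged over young donor hearts for the 7 tested genes with all hearts (black diamonds), with 1 or 2 hearts left out (purple) and with another scaling, filter or tool (green); filled symbols passed the limits and open symbols did not. Ednra and Ednrb stay filled throughout, Edn1 has 1 open symbol without young 13, and Agt, Ace, Agtr1a and Ece1 lie partly or wholly open.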

How the data were processed

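RNA-Seq was performed on 3 young and 3 aged donor hearts. The authors deposited raw read counts per gene without normalization, together with FPKM values. The deposited FPKM values equal the count divided by gene length and library total, within 0.1% for all but 1 of 133500 values. The submitters' processing notes name HISAT2 2.0.5, StringTie 1.3.3b, featureCounts 1.5.0-p3, DESeq2 1.16.1, GATK 3.7 and Rnor_6.0, and the use of strand is not given in the sources used here. Reads of overlapping genes or close paralogs are therefore uncertain.

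Counts were analysed with edgeR 4.0.16 (filterByExpr, TMM, glmQLFit and glmQLFTest, R 4.3.3), without covariates. Standard errors were derived as the log2 fold change over the root of F. P-values were adjusted over all 13784 tested genes by Benjamini-Hochberg. Ratios were tested by two-sided exact permutation over hearts (scipy 1.17.1), with 0.5 added to each count. TMM-scaled FPKM is the deposited count scaled for gene length and TMM library size. Replicates were compared by chi-square, and no pair was a duplicate (lowest chi-square per degree of freedom 9.81, for young 3 and young 13). The value was 471 and 503 for these hearts with young 15, and 71.6 to 218 among the aged hearts. DESeq2 1.42.0, limma-voom (limma 3.58.1), other scalings and filters, and leaving out hearts were alternatives. The edgeR steps were tested on simulated counts with the same dispersion for every gene and no outlier hearts. That test therefore does not cover hearts that differ as much within a group as these. The genes and lists were chosen with earlier results of these data known. Named from the lists were up to 4 genes each way past the limits with the largest log2 fold changes, and Agtr1b, Mas1, Edn2, Edn3 and Ece2 by role. Some results of this rule, 1 of the 4 ratios among them, are not reported here. The older symbols Adrbk1 and Ctgf are counted under Grk2 and Ccn2.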

Additional observations from a re-analysis of the deposited data

How the results depend on the processing

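No paired analysis was possible because the groups share only the number 3 and animal numbers count within a group. Of the 8 genes, 3 were higher and 1 lower past the limits. With an adjusted p under 0.05 by edgeR in place of the unadjusted p, the counts were 0 for all genes and 0 in each direction for the 8 genes and for the other genes of both systems. The 4436 genes past the limits became 7504 with limma-voom, 7396 without young 15 and aged 3, and 2432 (without young 3) to 7214 (without young 15) with 1 heart left out. The higher count of the 8 genes went from 1 (without young 13, where Ednrb alone passed) to 4 with 1 heart left out. The lower count was 2 with DESeq2, with limma-voom and without young 15 and aged 3, Agt joining Ednra each time, and 1 to 2 with 1 heart left out. Of the other genes, 6 were higher, against 10 with limma-voom, 10 without young 15 and aged 3, and 3 to 11 with 1 heart left out (3 without young 3, young 13 or aged 3, 11 without young 15). The 4 lower ones were 2 under library totals and 2 to 5 with 1 heart left out. Over all tested genes, the higher count was 3689 with limma-voom and 3764 without young 15 and aged 3. With 1 heart left out it was 817 (without young 3) to 3802 (without young 15). The lower count over all tested genes was 2921 with DESeq2, 3815 with limma-voom and 3632 without young 15 and aged 3. With 1 heart left out it was 1615 to 3412. Library totals changed the split over all genes from 1815 higher and 2621 lower to 3147 and 1441. Mas1 changed sign under library totals (0.047), without aged 3 (0.012, in a range from −0.82 with 1 heart left out) and without young 15 and aged 3 (0.184). With 1 heart left out, the log2 difference of the ratios was 0.41 to 0.90 for Edn1 to Ece1 and −2.35 to −1.24 for Ednra to Agtr1a. The causes were not tested.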

Other observations

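The values here were singled out after they were seen. Anpep (aminopeptidase N), which cuts angiotensin III, stood at 33.2 and 28.9 CPM in young 3 and 13 and at 281.9 CPM in young 15, against 595.7, 385.3 and 300.9 CPM in aged 3, 4 and 7, and did not pass the limits (log2 fold change 1.90, unadjusted p = 0.088 by edgeR). Nppa (atrial natriuretic peptide) was highest in aged 4 (1367 CPM), the heart with the most atrial marker counts, and lowest in aged 3 (4.57 CPM). Bdkrb1, the inducible kinin receptor, had 0, 0 and 5 counts in young and 9, 13 and 9 counts in aged donor hearts and was too low to test.

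T cell markers summed to 29.4 to 80.7 CPM in young and 96.3 to 145.5 CPM in aged donor hearts (2 of 6 tested higher, 0 lower). Schwann cell markers summed to 17.1 to 25.9 and 12.8 to 16.2 CPM (1 of 4 lower), mesothelial markers to 12.6 to 51.8 and 11.7 to 26.2 CPM (0 of 2 past the limits) and red blood cell markers to 728.6 to 5781 and 246.2 to 3097 CPM (1 of 5 lower). Agt per 1000 fibroblast marker counts overlapped between the groups (exact permutation p = 0.8).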
